A study of Mus musculus with 3 samples.

Results

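The mitosis and spindle genes are 43 genes whose products start, carry out or time the separation of chromosomes, among 31510 genes measured in mouse blastocysts. They were taken from the gene tables by name, 28 through the symbol in the table and 15 through the Ensembl identifier of the symbol. The rule used no measured value, but the list was drawn up with earlier results of these data known. The blastocysts came from 2-month-old CD-1 mothers held in delayed implantation, in which an embryo without ovarian estrogen stops growing in the uterus. All mothers were ovariectomized on day 4 of pregnancy and given 2 mg progesterone per mouse daily on days 5 to 7. One state, dormant, was flushed from the uterus on day 8. The other mothers also received estradiol (E2) on day 7, and their embryos were taken after 6 h (reactivating) or 12 h (reactivated). Every state is represented by 1 library of rRNA-depleted total RNA from a pool of over 3000 blastocysts, read as 50 bp single-end SOLiD reads. With 1 library per state no difference has a replicate check, no p-value is given, and the state cannot be told apart from the day and hour of collection.

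A cell enters mitosis when Cdk1, bound to a cyclin, is freed of the inhibitory phosphates that Wee1 adds and the Cdc25 phosphatases remove. Spindle motors and kinetochores then align the chromosomes, the spindle checkpoint holds the cell until each is attached, and the anaphase-promoting complex releases the sisters. Many of these genes are transcribed late in the cell cycle through the CHR element, which binds the MuvB complexes that repress them in resting cells and activate them before mitosis, and through CCAAT boxes, which bind NF-Y. Diapause blastocysts are known for a near stop of cell division that E2 reverses.

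The promoters of these genes held those 2 elements more often than promoters at large. RefSeq promoters (GRCm38.p6), 250 bases before to 50 after the transcription start, were given for 35 of the 43 genes, 38 promoters in all. Those of Aurkb, Ccna2, Cdc25c, Incenp, Kif20a, Smc4, Tpx2 and Wee1 are not shown. The sequence TTTGAA (CHR; reverse TTCAAA) was present on either strand in 28 of 38 promoters (73.7%), against 17.9% of all 32851 promoters in the table and 11.3% of the 10424 promoters of genes at 1 RPKM or more. CCAAT (reverse ATTGG) was present in 31 of 38 (81.6%), against 37.4% of all and 37.6% of the promoters of genes at 1 RPKM or more. Both stood together in 25 of 38 (65.8%), against 6.95% and 4.60%. Bub3, Ect2 and Prc1 are each counted through overlapping promoters that share matches. By gene, TTTGAA was present in 25 of 35, CCAAT in 28 and both in 22. The 2 strings overlapped in 1 of these 38 promoters, that of Cdca8, and a match is a string of letters, not a measured binding site.

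**Figure D1:**
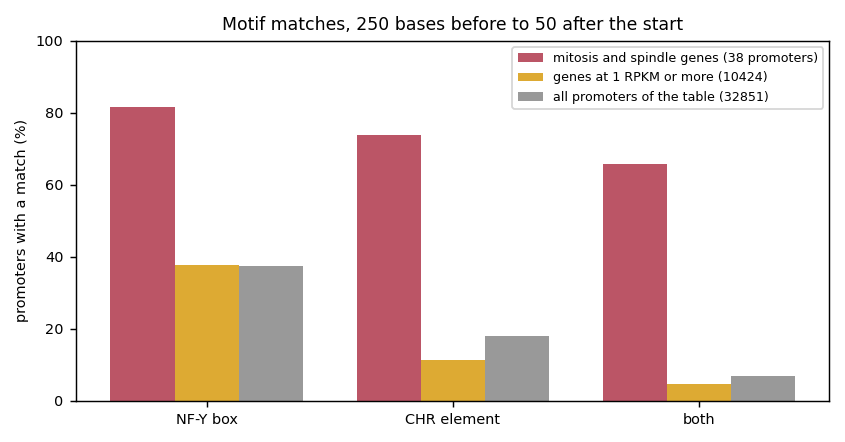
Percent of promoters with at least 1 CCAAT (NF-Y box), at least 1 TTTGAA (CHR element) or both, on either strand, in the 300 bases around the start, for the 38 promoters of the mitosis and spindle genes, the 10424 promoters of genes at 1 RPKM or more and all 32851 promoters. The 3 bars of the mitosis and spindle genes stand at 81.6%, 73.7% and 65.8%, each above both backgrounds.

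The promoters of 6 genes are printed because their genes span the range of responses described next. They are 200 bases long, end at the base before the start, read 5′ to 3′ on the strand of the gene, and show both strings, in either orientation, in capitals. Cdk1 (chr10:69352913-69353112, minus strand), Ccnb2 (chr9:70421555-70421754, minus strand) and Top2a (chr11:99024190-99024389, minus strand) hold both elements. Plk1 (chr7:122159235-122159434, plus strand) holds CCAAT here and TTTGAA at position 31 after the start. Cdc25b (chr2:131186748-131186947, plus strand) holds only CCAAT, and Nuf2 (chr1:169531465-169531664, minus strand) neither.
Cdk1: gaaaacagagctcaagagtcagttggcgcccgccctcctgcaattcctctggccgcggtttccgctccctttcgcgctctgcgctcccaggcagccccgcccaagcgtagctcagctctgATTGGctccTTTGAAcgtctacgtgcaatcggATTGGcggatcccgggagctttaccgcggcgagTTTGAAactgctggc
Ccnb2: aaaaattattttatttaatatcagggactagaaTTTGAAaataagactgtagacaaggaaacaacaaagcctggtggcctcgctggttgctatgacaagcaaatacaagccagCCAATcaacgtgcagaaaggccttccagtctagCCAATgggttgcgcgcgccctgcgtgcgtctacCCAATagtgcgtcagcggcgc
Top2a: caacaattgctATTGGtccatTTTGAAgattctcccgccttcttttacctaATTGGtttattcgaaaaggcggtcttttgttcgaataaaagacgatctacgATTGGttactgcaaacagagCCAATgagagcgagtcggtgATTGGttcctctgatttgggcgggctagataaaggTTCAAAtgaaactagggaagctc
Plk1: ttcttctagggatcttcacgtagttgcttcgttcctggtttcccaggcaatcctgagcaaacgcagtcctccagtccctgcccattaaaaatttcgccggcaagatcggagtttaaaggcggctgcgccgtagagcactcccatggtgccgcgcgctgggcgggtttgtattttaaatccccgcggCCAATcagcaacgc
Cdc25b: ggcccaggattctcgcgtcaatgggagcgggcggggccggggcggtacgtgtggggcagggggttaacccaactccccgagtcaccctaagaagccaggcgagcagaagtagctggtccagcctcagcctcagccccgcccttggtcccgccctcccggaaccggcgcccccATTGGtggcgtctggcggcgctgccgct
Nuf2: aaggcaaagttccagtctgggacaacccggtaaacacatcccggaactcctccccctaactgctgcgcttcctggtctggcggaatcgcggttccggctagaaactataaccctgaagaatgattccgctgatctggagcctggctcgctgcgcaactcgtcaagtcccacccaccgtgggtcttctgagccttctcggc
In Cdk1 the forward TTTGAA strings began at -71 and -15, counted from -1 just before the start, next to ATTGG at -80 and -48. In Ccnb2 the 3 CCAAT boxes began at -87, -54 and -21. Genes with and without the elements had overlapping ranges of difference. Among the 25 genes with TTTGAA the median log2 difference between reactivated and dormant blastocysts was 0.43, and among the 10 without it 0.57. With CCAAT it was 0.34 over 28 genes and without it 0.67 over 7. Birc5, Mad2l1, Nuf2 and Pttg1 had neither string in this window, and the first 3 of them were among the genes that rose.

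The libraries held 9298675 exon reads in the dormant, 10364607 in the reactivating and 12941447 in the reactivated state. Levels are given as RPKM, exon reads scaled to exon length and library size, with exact 95% Poisson intervals that cover counting error only, since no molecular identifiers tell copies of 1 molecule apart. The blastocyst label was met by its markers: 7 of 7 trophectoderm, 5 of 5 epiblast and 5 of 5 primitive endoderm markers reached 1 RPKM in every library. Trophectoderm markers summed to 1210, 1191 and 937 RPKM in dormant, reactivating and reactivated blastocysts, and epiblast markers to 139, 186.5 and 167. Single markers did not all follow these sums. The counting interval of the read ratio, reactivated over dormant, lay above 1 for 1 trophectoderm marker and below 1 for 6. For epiblast markers it lay above 1 for 2 and below 1 for 2. Maternal markers were lower in the reactivated library, with sums over 7 uterine epithelium genes of 70.6, 66.7 and 46.8 RPKM and over 7 immune genes of 19.2, 15.2 and 5.45. Of the epithelium genes 3 (Muc1, Wfdc2 and Msx1) reached 1 RPKM in every library. Of the immune genes 3 (Cd14, Laptm5 and Tyrobp) did so in the dormant, 2 in the reactivating and 1 in the reactivated pool. These 3 immune genes and Wfdc2 were lower in reactivated than in dormant blastocysts by at least 1 on the log2(RPKM + 1) scale. The other markers of both lists, among them the defining genes Esr1, Pgr, Ptprc, Csf1r and Adgre1, were under 1 RPKM in every library, as were all 5 stromal genes, and the red cell genes Hba-a1 and Hba-a2 were at 0. Mitochondrially encoded RNA took 19.7%, 19.8% and 25.8% of exon reads. The part of these shifts in the results below was not tested.

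Transcripts of the mitosis and spindle genes were present in dormant blastocysts and made up a larger share of RNA 12 h after E2. Together they took 827 RPM, exon reads scaled to library size alone (95% Poisson interval 812 to 842) in the dormant, 819.5 (805 to 834) in the reactivating and 1193 (1177 to 1208) in the reactivated pool. The ratio of summed exon reads was 1.44 (1.41 to 1.48) for reactivated over dormant and 0.991 (0.966 to 1.02) for reactivating over dormant. In every library 42 of the 43 genes reached 1 RPKM, and 5 RPKM was reached by 19 genes in the dormant, 20 in the reactivating and 30 in the reactivated pool. In these pools, fewer dividing cells and less RNA per cell cannot be told apart. The order of the 3 libraries was dormant, reactivating, reactivated from low to high for 22 genes, and 33 genes were highest in reactivated blastocysts, 7 in reactivating and 3 (Cdc25a, Cenpf and Ncapd2) in dormant ones. Neither these orders nor the genes at 5 RPKM were counted over all genes. Of all 31510 genes, 11497, 11535 and 11089 reached 1 RPKM in the 3 libraries. Of all genes tested, 45.1% were higher in reactivated than in dormant blastocysts, beside 37 of these 43.

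The highest genes by mean RPKM over the libraries were Bub3 (27.3), Cdk1 (18.5), Top2a (17.9), Ccna2 (15.2) and Smc4 (14.7). The lowest were Cdc25c (1.04), Cdc25b (1.63), Plk1 (1.89), Pttg1 (2.06) and Kif2c (2.29). Plk1, the kinase that acts throughout mitosis, thus stood near the bottom of the list while Aurka, its partner at the spindle pole, averaged 9.14 RPKM.

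**Figure D2:**
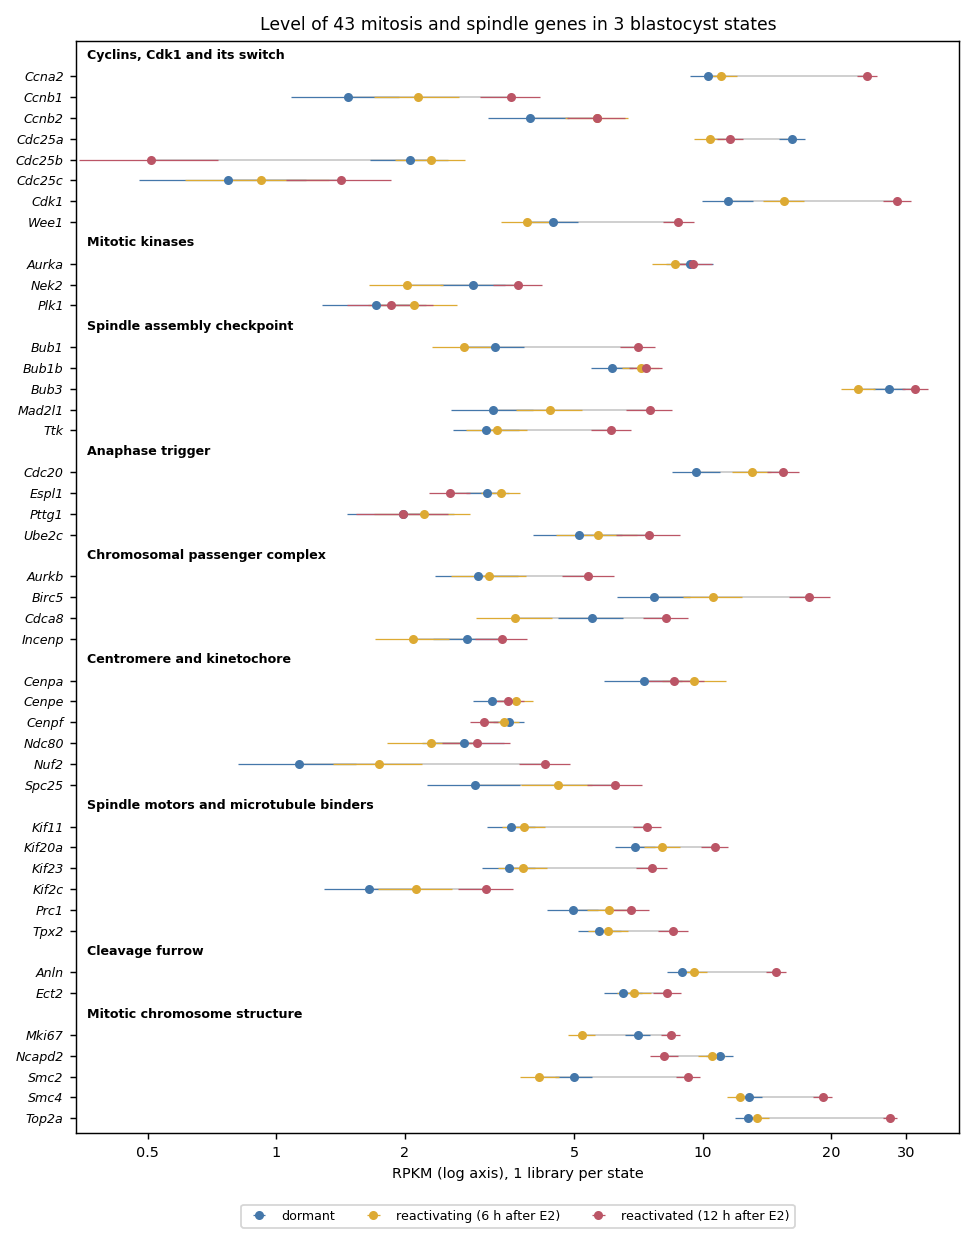
RPKM of the 43 mitosis and spindle genes on a log axis, grouped by role, with 1 point per state and lines for exact 95% Poisson intervals. The reactivated point lies farthest right for 33 genes, and for Cdc25b it lies at 0.51 RPKM, left of both other states.

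Between reactivated and dormant blastocysts, 6 genes rose and 1 fell by a size rule that asked for a log2 difference of at least 1 on the scale log2(RPKM + 1) and at least 1 RPKM in the higher library. Cdk1, Ccna2, Nuf2, Birc5, Top2a and Mad2l1 rose, which is 14.0% of the 43 genes, beside 5.27% of all 12037 genes tested. Cdc25b fell, which is 2.33% of the genes, beside 7.66% of all. The median log2 difference was 0.50, beside -0.07 over all genes tested, and the values ran from -1.02 to 1.31. All 43 genes passed the minimum of 1 RPKM. The count depends on the settings: 11 genes rose with a pseudocount of 0.1 RPKM in place of 1, 9 with CPM and 1, Cdk1, with a pseudocount of 5 RPKM. By scaling, of all genes called, 40.7% were higher with library totals, 51.9% with upper-quartile scaling, under which 8 of the mitosis and spindle genes rose and none fell, and 31.5% with CPM. Just inside the rule stood Mad2l1 at 1.01 and Top2a at 1.05, and just outside it Kif23 at 0.93, Bub1 at 0.92, Kif11 and Ccnb1 at 0.88 each.

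Most of the other genes lay above 1 by less than the rule asked. The exact 95% counting interval of the exon read ratio, reactivated over dormant, lay wholly above 1 for 31 genes (72.1%), beside 29.2% of all genes tested. It lay wholly below 1 for 5 genes (11.6%), Cdc25a, Cdc25b, Cenpf, Espl1 and Ncapd2, beside 37.5% of all. For the remaining 7 it spanned 1. These intervals compare 2 libraries, not 2 conditions.

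**Figure D3:**
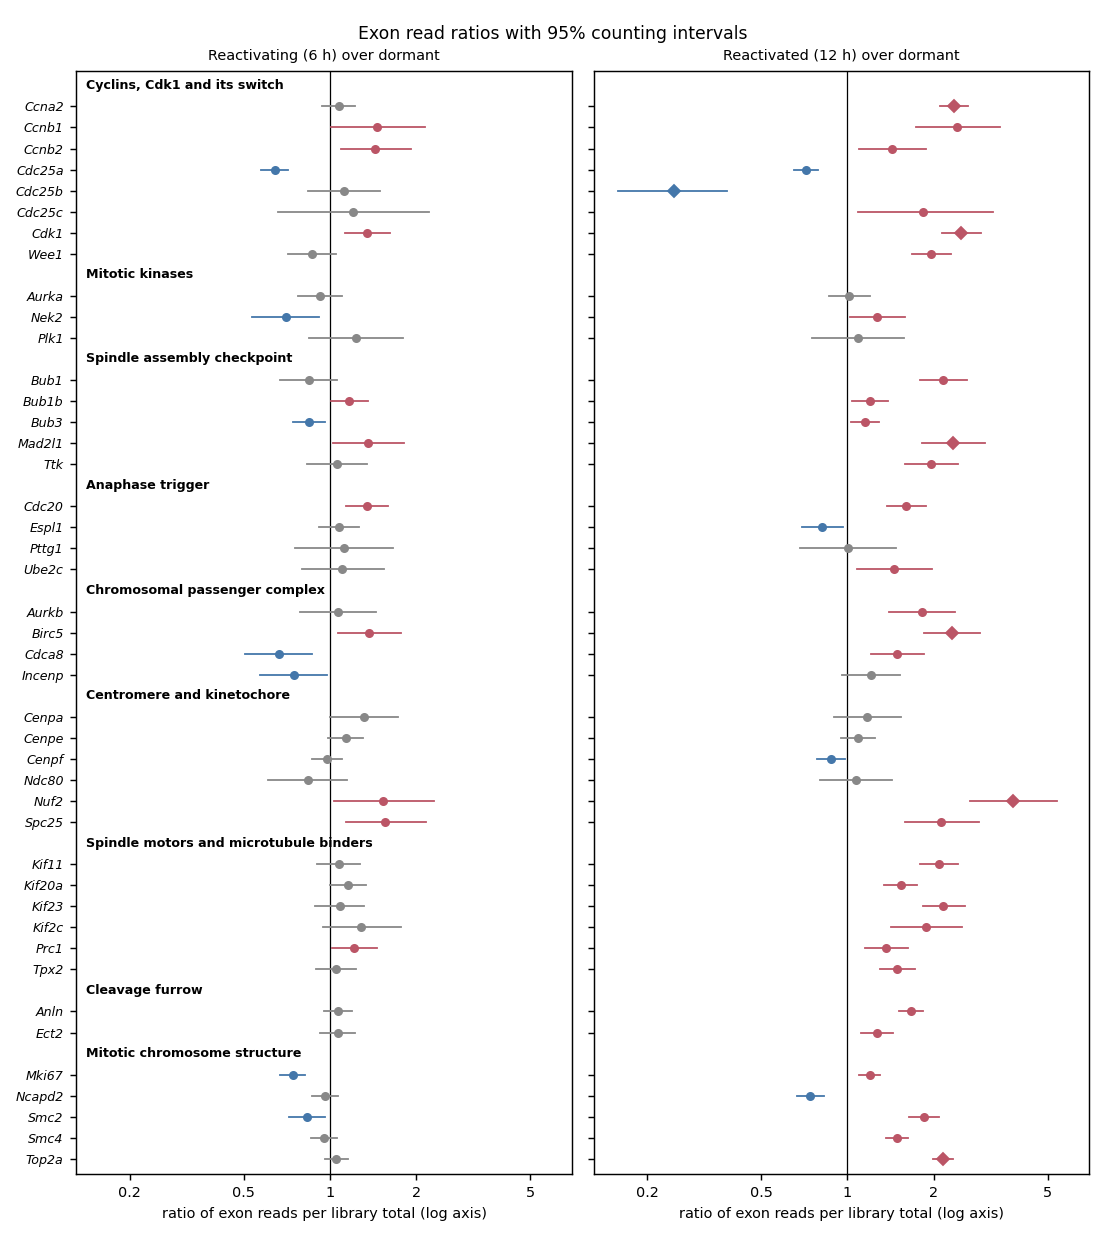
Exon read ratios with exact 95% counting intervals on a log axis, for reactivating over dormant (left) and reactivated over dormant (right) blastocysts. Red marks intervals above 1, blue those below 1, grey those that span 1, and diamonds the genes past the size rule; 10 genes are red at 6 h and 31 at 12 h.

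The cyclins and the Cdk1 switch held 2 of the 6 rises and the only fall. Cdk1, the kinase that drives mitosis (ENSMUSG00000019942, GRCm38 chromosome 10, 69335146 to 69352938), stood at 11.5 RPKM (9.97 to 13.1) in the dormant, 15.5 (13.8 to 17.3) in the reactivating and 28.6 (26.5 to 30.8) in the reactivated pool. Reactivated over dormant, its exon ratio was 2.49 (2.13 to 2.92) and its log2 difference 1.25. Ccna2, the cyclin A that partners Cdk2 and Cdk1 from S phase to early mitosis (ENSMUSG00000027715, chromosome 3, 36564865 to 36572150), was at 10.3, 11.0 and 24.3 RPKM in the same order of states, a ratio of 2.36 (2.11 to 2.65) for reactivated over dormant. Both genes were highest in the reactivated library, and Ccna2 was nearly level in the earlier states.

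The B cyclins, which carry Cdk1 through mitosis, were lower in level. Ccnb1 stood at 1.47 RPKM (1.08 to 1.94) in the dormant, 2.15 (1.70 to 2.68) in the reactivating and 3.55 (3.01 to 4.15) in the reactivated pool, with a ratio of 2.42 (1.74 to 3.41) for reactivated over dormant. Its log2 difference of 0.88 missed the size rule, in which the added 1 RPKM weighs on low genes. Its table entry also carries the symbol of a near-identical copy, as do those of Mad2l1 and Kif2c, so reads of copies may be split or pooled there. Ccnb2 stood at 3.93 RPKM in the dormant, 5.66 in the reactivating and 5.64 in the reactivated pool, with ratios of 1.44 (1.10 to 1.89) at 12 h and 1.44 (1.09 to 1.91) at 6 h over dormant. Ccnb2 was nearly level between reactivated and reactivating blastocysts, whereas Ccnb1 had a ratio of 1.65 (1.25 to 2.20) there.

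The 3 Cdc25 phosphatases, which remove the block on Cdk1, went separate ways. Cdc25b (ENSMUSG00000027330, chromosome 2, 131186949 to 131198497) stood at 2.06 RPKM (1.66 to 2.53) in the dormant and 2.31 (1.90 to 2.78) in the reactivating pool and fell to 0.51 (0.345 to 0.730) in the reactivated pool. These values rest on 90, 112 and 30 exon reads. Its ratio for reactivated over dormant was 0.248 (0.158 to 0.379), the lowest of the 43 genes, and its log2 difference of -1.02 lay at the edge of the rule and missed it with median-ratio or upper-quartile scaling. Cdc25a, the member that acts from the G1/S transition onwards, was at 16.2 RPKM (15.1 to 17.3) in the dormant, 10.4 (9.55 to 11.2) in the reactivating and 11.6 (10.8 to 12.4) in the reactivated pool. Its level was highest in the dormant library, with ratios over dormant of 0.641 (0.575 to 0.713) at 6 h and 0.717 (0.650 to 0.791) at 12 h. Cdc25c stood at 0.77 RPKM in the dormant, 0.92 in the reactivating and 1.42 in the reactivated pool, on 21, 28 and 52 exon reads, with a ratio of 1.84 (1.09 to 3.22) for reactivated over dormant. Wee1, the kinase that sets the block, was at 4.47, 3.87 and 8.77 RPKM in dormant, reactivating and reactivated blastocysts, with a ratio of 1.96 (1.67 to 2.31) for reactivated over dormant. Wee1 and Cdc25b, which act against each other on Cdk1, thus lay in opposite directions at 12 h, with log2 differences of 0.84 and -1.02.

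Of the mitotic kinases Aurka, Nek2 and Plk1, none passed the size rule at 12 h over dormant, and only Nek2 had a ratio interval above 1. Aurka, which builds the spindle poles, was at 9.33 RPKM in the dormant, 8.63 in the reactivating and 9.47 in the reactivated pool, and its ratio for reactivated over dormant was 1.01 (0.860 to 1.20). Plk1 was at 1.71, 2.10 and 1.86 RPKM, a ratio of 1.09 (0.754 to 1.58). Both intervals span 1, and the levels of both genes in the 3 states lay within their counting intervals of each other. Nek2, which separates centrosomes, was at 2.90 RPKM in the dormant, 2.03 in the reactivating and 3.69 in the reactivated pool, lowest at 6 h and with a ratio of 1.27 (1.02 to 1.59) for reactivated over dormant. Aurkb, the Aurora kinase of the chromosomal passenger complex, differed from Aurka: it stood at 2.97, 3.16 and 5.39 RPKM, a ratio of 1.81 (1.40 to 2.38), whose interval lies above that of Aurka.

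All 5 spindle checkpoint genes had ratios above 1 at 12 h, and 1 rose by the size rule. Mad2l1, which forms the inhibitor of Cdc20 (ENSMUSG00000029910, chromosome 6, 66535390 to 66547220), was at 3.22 RPKM (2.57 to 3.99) in the dormant, 4.39 (3.66 to 5.22) in the reactivating and 7.51 (6.63 to 8.47) in the reactivated pool, a ratio of 2.33 (1.82 to 3.01) for reactivated over dormant. The checkpoint kinase Bub1 was at 3.26, 2.75 and 7.04 RPKM, a ratio of 2.16 (1.80 to 2.61), and Ttk, the kinase that recruits the checkpoint to kinetochores, at 3.11, 3.29 and 6.10 RPKM, a ratio of 1.96 (1.59 to 2.43). At 6 h over dormant the intervals of Bub1 and Ttk spanned 1. Bub1b stood at 6.14, 7.17 and 7.35 RPKM, with a ratio of 1.20 (1.04 to 1.38). Bub3, the most abundant of the 43 genes, stood at 27.4, 23.1 and 31.4 RPKM, a ratio of 1.15 (1.03 to 1.29). It lies within the span that GENCODE M21 gives Fgfr2 on the opposite strand, chromosome 7, 130162451 to 133123350.

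The anaphase trigger, which ends mitosis by destroying securin and the cyclins, was split. Cdc20, the activator that the checkpoint restrains, was at 9.65 RPKM in the dormant, 13.0 in the reactivating and 15.4 in the reactivated pool, a ratio of 1.60 (1.37 to 1.88) for reactivated over dormant. Ube2c, the ubiquitin-conjugating enzyme of that reaction, was at 5.13, 5.68 and 7.47 RPKM, a ratio of 1.46 (1.08 to 1.97). The 2 genes downstream had ratios close to or below 1: securin, Pttg1, was at 1.98 RPKM in the dormant, 2.22 in the reactivating and 1.98 in the reactivated pool, a ratio of 1.002 (0.682 to 1.48). Separase, Espl1, the protease that cuts cohesin, was at 3.13, 3.37 and 2.56 RPKM, a ratio of 0.817 (0.696 to 0.961).

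In the chromosomal passenger complex, which corrects faulty attachments and then guides cytokinesis, Birc5 rose. Birc5 or survivin (ENSMUSG00000017716, chromosome 11, 117849251 to 117855743) was at 7.71 RPKM (6.30 to 9.33) in the dormant, 10.6 (9.00 to 12.3) in the reactivating and 17.8 (15.9 to 19.8) in the reactivated pool, a ratio of 2.31 (1.85 to 2.91) for reactivated over dormant. The scaffold Incenp was at 2.80, 2.09 and 3.38 RPKM and borealin, Cdca8, at 5.49, 3.63 and 8.19 RPKM. Both were lowest at 6 h, and their ratios for reactivated over dormant were 1.21 (0.959 to 1.52) and 1.49 (1.21 to 1.85). The subunits of this complex lay on both sides of 1 at 6 h, when Birc5 had a ratio over dormant of 1.37 (1.07 to 1.77) and Cdca8 one of 0.661 (0.504 to 0.866).

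The kinetochore, the machine that ties chromosomes to microtubules, held genes of 1 complex with ratios far apart. Nuf2 (ENSMUSG00000026683, chromosome 1, 169497934 to 169531464) was at 1.13 RPKM (0.813 to 1.54) in the dormant, 1.74 (1.36 to 2.20) in the reactivating and 4.28 (3.72 to 4.90) in the reactivated pool. Its ratio for reactivated over dormant, 3.77 (2.69 to 5.41), was the highest of the 43 genes and rests on 208 exon reads against 41. Ndc80, which pairs with Nuf2 in a coiled coil, was at 2.76, 2.31 and 2.96 RPKM, a ratio of 1.07 (0.804 to 1.43), and Spc25, of the inner end of the same complex, was at 2.93, 4.57 and 6.22 RPKM, a ratio of 2.13 (1.59 to 2.87). The Nuf2 interval lies above that of Ndc80. Cenpa, the centromeric histone, was at 7.30, 9.57 and 8.55 RPKM, the kinesin Cenpe at 3.21, 3.65 and 3.50, and Cenpf, a large fibrous-corona protein, at 3.51, 3.42 and 3.07. None of these last 3 passed the size rule, and only the Cenpf interval left 1, at 0.877 (0.781 to 0.984).

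All 6 spindle motors and microtubule binders and both genes of the cleavage furrow had ratios above 1 at 12 h, and none rose by the size rule. Kif23, a motor of the central spindle, was at 3.51 RPKM in the dormant, 3.79 in the reactivating and 7.60 in the reactivated pool, a ratio of 2.16 (1.83 to 2.57) for reactivated over dormant. Kif11, which pushes the spindle poles apart, was at 3.56, 3.81 and 7.41 RPKM, a ratio of 2.08 (1.80 to 2.42). Both were nearly level between dormant and reactivating blastocysts. Kif2c, a microtubule depolymerase, had a ratio of 1.88 (1.42 to 2.51), Kif20a, which carries the passenger complex, 1.53 (1.34 to 1.75), the spindle assembly factor Tpx2 1.49 (1.29 to 1.72) and the microtubule bundler Prc1 1.36 (1.15 to 1.62). In the furrow, the scaffold Anln was at 8.94, 9.53 and 14.9 RPKM, a ratio of 1.66 (1.51 to 1.84), and Ect2, which switches on RhoA there, at 6.51, 6.92 and 8.25 RPKM, a ratio of 1.27 (1.12 to 1.44).

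Among genes of mitotic chromosome structure Top2a rose. Top2a, the topoisomerase that untangles sister DNA (ENSMUSG00000020914, chromosome 11, 98992943 to 99024189), was at 12.8 RPKM (11.9 to 13.7) in the dormant, 13.4 (12.6 to 14.3) in the reactivating and 27.5 (26.4 to 28.6) in the reactivated pool, a ratio of 2.15 (1.99 to 2.33) for reactivated over dormant. The condensin cores Smc2 and Smc4 stood at 4.99, 4.14 and 9.25 RPKM and at 12.8, 12.2 and 19.1 RPKM, with ratios of 1.85 (1.65 to 2.09) and 1.49 (1.36 to 1.63). Ncapd2, which joins those cores in condensin I, was at 11.0, 10.5 and 8.13 RPKM, a ratio of 0.742 (0.667 to 0.825). In exon reads the subunits of condensin I thus lay on both sides of 1. In reads across exon junctions the Ncapd2 ratio was 0.997 (0.804 to 1.24), so its lower level was not seen there. Mki67, the proliferation antigen that coats mitotic chromosomes, was at 7.04 RPKM in the dormant, 5.21 in the reactivating and 8.41 in the reactivated pool, a ratio of 1.20 (1.10 to 1.30), and did not pass the size rule.

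At 6 h no gene of the group passed the size rule. Of 42 genes tested, 0 were higher and 0 lower, beside 2.68% and 3.07% of all 12126 genes, and Cdc25c was under 1 RPKM in both libraries. The median log2 difference between reactivating and dormant blastocysts was 0.08, beside 0.06 over all genes. The exon ratio interval lay above 1 for 10 genes (23.8%), beside 28.7% of all, and below 1 for 7 (16.7%), beside 17.0%: both shares are near the background. The largest differences were 0.50 for Spc25 and -0.60 for Cdc25a. Directions of some small positive values at 6 h, those of Anln, Aurkb, Ect2, Top2a, Tpx2 and Ttk, turned under at least 1 other scaling.

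Between reactivated and reactivating blastocysts, 3 of 43 genes rose, beside 3.82% of all 12065 genes, and 1 fell, beside 7.63%. Bub1 had a log2 difference of 1.10 and an exon ratio of 2.56 (2.12 to 3.11), Ccna2 of 1.07 and 2.20 (1.98 to 2.45), and Wee1 of 1.004 and 2.26 (1.93 to 2.67). Cdc25b fell, with -1.13 and 0.221 (0.143 to 0.334). In place of these 3, 7 genes rose with a pseudocount of 0.1 RPKM, median-ratio scaling or scaling to nuclear genes of at least 200 exon bases, 9 with upper-quartile scaling, 6 with CPM and 0 with a pseudocount of 5 RPKM. The fall of Cdc25b was lost with a pseudocount of 5 or a minimum of 5 RPKM. Smc2, Cdca8 and Top2a lay just outside the rule, with 0.996, 0.989 and 0.982. The ratio interval lay above 1 for 28 genes, beside 25.8% of all, and below 1 for 3, beside 41.0%. The median was 0.43, beside -0.13 over all genes. This comparison shares the reactivated library with the one against dormant blastocysts, so the 2 are not independent. Of all genes called here, 33.4% were higher with library totals, 52.7% with upper-quartile scaling and 25.1% with CPM, and the directions of Ccnb2, Cenpa, Cenpe, Cenpf, Plk1 and Pttg1 turned under at least 1 other scaling.

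**Figure D4:**
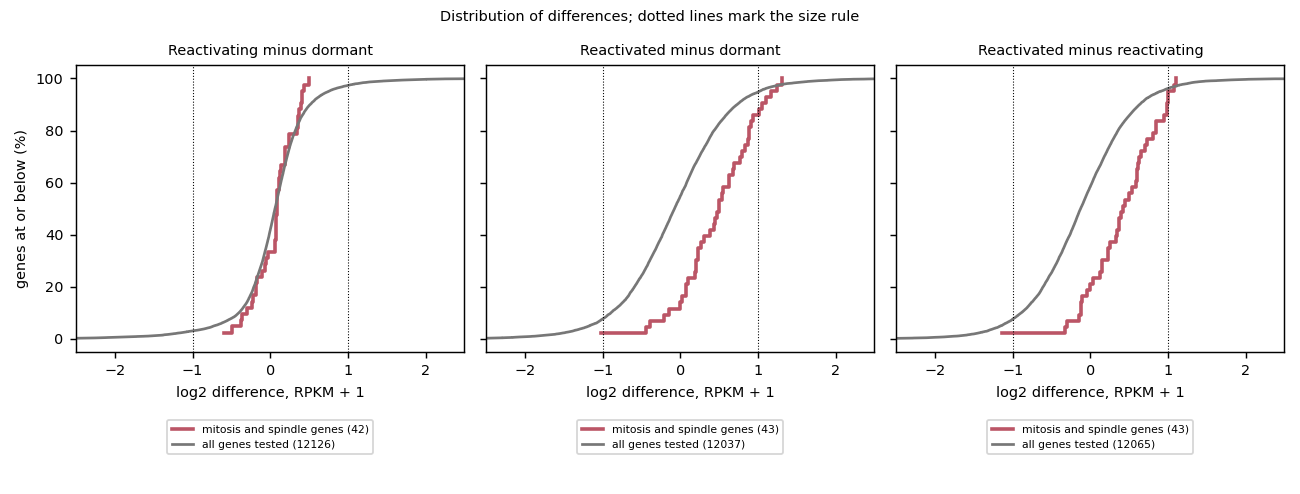
Cumulative share of genes by log2 difference of RPKM + 1 for the mitosis and spindle genes (red) and all genes tested (grey), in the 3 comparisons, with dotted lines at the size rule of 1. The curves overlie each other at 6 h (medians 0.08 and 0.06) and part at 12 h over dormant (0.50 and -0.07) and over 6 h (0.43 and -0.13).

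Intron reads, which come largely from unspliced transcripts, gave a second reading of the same genes. Over the 42 genes other than Ncapd2 they summed to 4981 in reactivated and 2915 in dormant blastocysts, a ratio of 1.27 (1.21 to 1.33) per library read, beside 1.49 (1.45 to 1.52) for the exon reads of the same 42 genes. Without Top2a as well, whose intron holds a small RNA gene, the ratios were 1.34 (1.27 to 1.40) in introns and 1.43 (1.40 to 1.47) in exons. With at least 20 intron reads in the pair of libraries, 42 genes could be read, a set that leaves out Cdc25b and includes Ncapd2. The interval of their intron ratio lay above 1 for 18, beside 20.6% of 13243 genes, and below 1 for 5, beside 27.8%. These 5 were Aurka, Cdc25a, Cenpf, Ncapd2 and Top2a, and Ncapd2 and Top2a are taken up below. The median log2 intron ratio of the 42 genes was 0.41, their median log2 exon ratio 0.58 and the median log2 intron ratio of all genes -0.04. Of the 31 genes with exon ratios above 1, 17 also had intron ratios above 1, an overlap that was not counted over all genes. Cdk1 was among these 17, with 2.41 (1.84 to 3.20) in introns, as were Bub1 with 2.21 (1.56 to 3.21) and Ccna2 with 2.36 (1.37 to 4.25). Nuf2 had an intron ratio of 1.91 (1.31 to 2.84), below its exon ratio of 3.77. Aurka had an intron ratio of 0.645 (0.436 to 0.950) beside an exon ratio of 1.01, and Mki67 one of 1.97 (1.45 to 2.70) beside 1.20.

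At 6 h the introns showed no shared difference, with a median log2 ratio of -0.09 over 41 genes, 8 above 1 beside 18.9% of all genes and 7 below beside 17.8%. The 8 include Ncapd2 and the 7 include Top2a. Cdca8 and Ndc80 stood out by size, with intron ratios over dormant of 2.45 (1.58 to 3.89) and 2.52 (1.58 to 4.15) beside exon ratios of 0.661 and 0.836 (0.606 to 1.15), and were named after their values were seen. Reads across exon junctions, which only spliced RNA gives, summed to 4262 in reactivated and 1957 in dormant blastocysts, a ratio of 1.62 (1.54 to 1.71). For 41 genes with enough of them, 23 had a junction ratio above 1, beside 22.8% of all genes, and 3 below, beside 27.6%. Those 3 were Aurka, Cdc25a and Cdc25b, and the junction intervals of Cenpf, Espl1 and Ncapd2 spanned 1. Between reactivated and reactivating blastocysts the intron ratio lay above 1 for 19 of 42 genes, beside 15.8% of all genes, and below 1 for 1, beside 27.3%. That 1 gene was Ncapd2, which is left out of the intron sums. Cdc20, named after its values were seen, had a junction ratio of 4.86 (3.34 to 7.29) beside an exon ratio of 1.60.

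**Figure D5:**
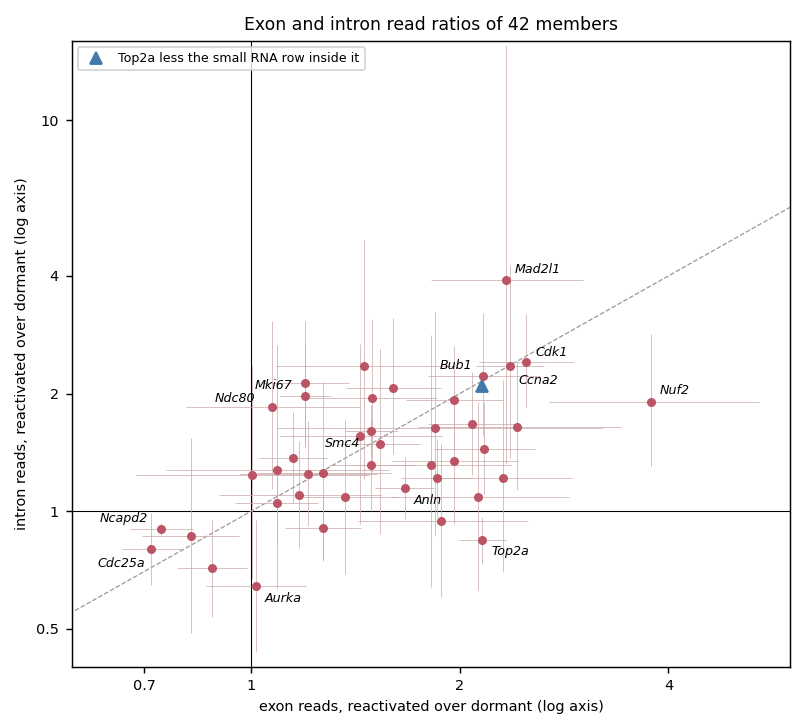
Intron against exon read ratio, reactivated over dormant, for the 42 genes with at least 20 intron reads (all but Cdc25b), on log axes with exact 95% counting intervals. The dashed line marks equal ratios. Most points lie right of and above 1, Top2a lies at 2.15 in exons and 0.842 in introns, and the triangle shows it at 2.10 after the small RNA in its intron is taken off.

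Small RNA genes inside introns may bear on 2 of these values. The Top2a intron ratio, reactivated over dormant, was 0.842 (0.734 to 0.968) as deposited, from 444 and 392 reads. The snoRNA Gm23451, on the same strand within Top2a (chromosome 11, 99017031 to 99017152), has 165 reads in reactivated and 293 in dormant blastocysts in its own entry. With those taken off, in a step added after the values were seen, 279 and 99 reads remain and the ratio is 2.10 (1.66 to 2.66), close to the exon ratio of 2.15. It is not known here whether the same reads are counted in both entries. Ncapd2 had 5825, 7098 and 7048 intron reads in dormant, reactivating and reactivated blastocysts, against 700, 745 and 698 exon reads. Scarna10 lies on the same strand in its intron (chromosome 6, 125186359 to 125186683) but has no entry of its own by Ensembl identifier. The part of Scarna10 in these intron reads could not be measured, and Ncapd2 was left out of the intron sums.

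The other genes of the division machinery were described from lists, with counts by the size rule for reactivated over dormant. Beside these counts, here and in the paragraphs on further lists below, 5.27% of all 12037 genes tested were higher and 7.66% lower. The median over all genes was -0.07. Of 35 other kinetochore and checkpoint genes 3 rose and 0 fell, with a median log2 difference of 0.47. Ska1, which couples kinetochores to microtubule ends, was at 1.24, 4.05 and 11.0 RPKM in dormant, reactivating and reactivated blastocysts, and was also higher by the rule at 6 h. Oip5, which helps load the centromeric histone, was at 1.50, 3.36 and 7.00 RPKM, and the centromere protein Cenpu at 1.20, 2.21 and 4.24. Of 18 other condensin and cohesin genes 3 rose and 0 fell (median 0.28), namely Cdca5 or sororin, at 2.79, 2.68 and 8.65 RPKM, the cohesin acetyltransferase Esco2, at 2.79, 2.80 and 7.55 RPKM, and the condensin subunit Ncapg, at 2.89, 3.10 and 6.86 RPKM. Of 20 other motor, spindle and cytokinesis genes 0 rose and 1 fell (median 0.32): Numa1, which anchors spindle poles, was at 47.1, 48.9 and 22.6 RPKM. Of 26 centrosome genes none passed (median 0.03), and Plk4, the kinase of centriole duplication, was at 3.42, 3.70 and 6.66 RPKM, a log2 difference of 0.79. Against reactivating blastocysts the centrosome scaffold Pcnt fell, at 5.61 RPKM in reactivated and 13.9 in reactivating ones, and Trip13, which dismantles the checkpoint, rose, at 8.99 and 3.81 RPKM.

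Of 17 anaphase-promoting complex genes 1 rose and 0 fell, with a median of -0.08. The riser was Fbxo5 or Emi1, the inhibitor of that complex, at 3.85, 3.61 and 11.2 RPKM in dormant, reactivating and reactivated blastocysts, a ratio of 2.90 (2.24 to 3.78) for reactivated over dormant. Its activator in G1, Fzr1 or Cdh1, was at 14.0, 15.2 and 9.20 RPKM, a ratio of 0.657 (0.574 to 0.752). Against reactivating blastocysts the subunits Anapc13 and Anapc16 fell, at 5.70 and 3.49 RPKM in reactivated and 15.0 and 9.21 in reactivating ones. Of 14 other entry and exit regulators 0 rose and 1 fell (median 0.04), Cks2, on 14, 4 and 2 reads, which is too few for a firm level. The Wee1 relative Pkmyt1 was at 3.91, 4.80 and 3.21 RPKM and the kinase Mastl at 2.32, 2.82 and 4.43.

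Among 22 transcription factors of cell cycle genes, 20 were tested and 4 rose, with 0 falling and a median of 0.27. E2f8 was at 3.91, 4.13 and 13.9 RPKM in dormant, reactivating and reactivated blastocysts, Rbbp4, a MuvB subunit, at 37.1, 53.8 and 78.3, and Tfdp1, the partner of E2F proteins, at 3.42, 5.34 and 8.53. E2f3 was at 1.11, 1.31 and 4.04 RPKM. The activators of CHR promoters did not pass the size rule. Foxm1 was at 2.43, 1.88 and 1.88 RPKM, a ratio of 0.774 (0.614 to 0.974) for reactivated over dormant, and Mybl2, or B-Myb, at 25.7, 28.6 and 20.8 RPKM, a ratio of 0.811 (0.743 to 0.885). The MuvB subunits Lin9 and Lin54 were at 4.44, 4.99 and 6.88 and at 6.01, 5.17 and 7.33 RPKM. Lin37, needed for repression by MuvB, was at 2.53, 1.11 and 1.04 RPKM, on 47, 23 and 26 reads, and the pocket protein Rbl2 at 1.29, 1.69 and 0.63. Of 43 DNA replication genes 7 rose and 0 fell, with a median of 0.62 and 37 ratio intervals above 1, beside the median of 0.50 and 31 intervals of the 43 mitosis and spindle genes. The licensing and initiation genes Cdc45, at 3.12, 4.31 and 13.2 RPKM, Cdc6, at 1.40, 1.15 and 6.04, and Mcm10, at 3.37, 4.25 and 11.6, had the largest rises among them. Pcna was at 4.05, 5.57 and 8.79 RPKM, a log2 difference of 0.96. Ccne1, the cyclin of S phase entry, rose, at 2.59, 3.02 and 17.5 RPKM, a ratio of 6.76 (5.28 to 8.76) for reactivated over dormant. At 6 h over dormant the replication genes had a median of 0.10, with 0 higher and 0 lower, beside 2.68% and 3.07% of all genes.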

How the data were processed

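RNA from 3 pools of blastocysts, 1 library per state, was sequenced on the SOLiD platform, per the labels' protocols. The deposited tables hold read counts per gene in exons, introns, exon junctions and on the opposite strand, per the file headers. The same deposited tables hold, per the file headers, an RPKM computed by the authors. It followed from exon reads, exon length and totals of 14118723 (dormant), 15687239 (reactivating) and 18982195 (reactivated) reads within 2% or 0.011 RPKM for each of the 43 genes. The submitters' processing notes name GRCm38. The aligner is not given in the sources used here, nor is the counter or the annotation release. Coordinates are those of GENCODE M21 (GRCm38), which held 26687 of 31510 identifiers (84.7%), and promoters those of RefSeq (GRCm38.p6).

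Differences are log2((RPKM + 1)/(RPKM + 1)) with the size rule of the text, over all genes. Adding 1 RPKM makes low genes seem to change less. Counts have exact 95% Poisson intervals and ratios of counts exact binomial ones, for counting error only. Scripts were tested on simulated counts with known changes. Without replicates there was no SD and no test across samples. Genes named with values are those past the size rule in any comparison, the 5 highest and 5 lowest by mean RPKM, the gene with the largest change per role, the Cdc25, cyclin B and Aurora families, up to 3 higher and 3 lower genes at 5 RPKM or more per other list, and a set of genes fixed by name. The other members are also given. Cenpu, E2f3 and Cks2, under 5 RPKM, are named as the remaining genes past the rule in their lists after their values were seen. The 43 genes and the lists were chosen with earlier results of these data known. Alternatives were other pseudocounts, minimums and scalings, CPM, an intron minimum of 50 reads, a shorter promoter window and, added after seeing the data, junction reads alone, the Top2a intron less its snoRNA and intron sums without Top2a. Python 3.11.15, pandas 2.3.3, numpy 2.4.6, scipy 1.17.1 and matplotlib 3.10.9 were used.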

Additional observations from a re-analysis of the deposited data

Results flagged for a closer look

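Reads on the strand opposite to the gene, which the comparisons do not use, were 4.08 to 5.18% of a library in all but reached at least 20 per 100 exon reads in some library for 4 genes. For Ccnb2 there were 58.8 opposite-strand reads per 100 exon reads in the dormant, 19.1 in the reactivating and 20.7 in the reactivated pool. For Nuf2 there were 48.8, 11.4 and 9.13, for Cdc25c 19.0, 60.7 and 15.4, and for Kif20a 21.6, 24.5 and 19.2, in the same order of states. Kif20a overlaps Cdc23 on the opposite strand by 2327 bases. The values of the other 3 rest on few reads, such as 20, 8 and 19 for Nuf2.

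For 5 genes the counting intervals put the 2 E2 libraries on opposite sides of the dormant one. Exon ratios over dormant were 0.699 at 6 h and 1.27 at 12 h for Nek2, 0.845 and 1.15 for Bub3, 0.661 and 1.49 for Cdca8, 0.740 and 1.20 for Mki67, and 0.830 and 1.85 for Smc2. The dormant library is shared, no state had a replicate, and the difference between the 2 times was not tested. Such reversals were not counted over all genes. By the same intervals 17.0% of all genes tested lay below 1 at 6 h and 29.2% above 1 at 12 h. None of the 5 passed the size rule against dormant blastocysts at either time.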

How the results depend on the processing

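No paired analysis was possible because each state had 1 library, and leaving out a replicate was not possible either. Of the counts and medians that answer a comparison, 60 alternative values stayed close to the main ones and 19 moved. For reactivated over dormant blastocysts, 11 genes rose with a pseudocount of 0.1 RPKM and 1, Cdk1, with 5 RPKM, against 6. The fall of Cdc25b was lost, leaving 0, with a pseudocount of 5, a minimum of 5 RPKM, median-ratio scaling or upper-quartile scaling. For reactivated over reactivating blastocysts, 7 genes rose with a pseudocount of 0.1, 0 with 5, 7 with median-ratio scaling, 9 with upper-quartile scaling, 7 with scaling to nuclear genes of at least 200 exon bases and 6 with CPM, against 3, and 0 fell with a pseudocount of 5 or a minimum of 5 RPKM. The median at 6 h over dormant, 0.08, was 0.0495 with a pseudocount of 5, 0.0273 with median-ratio, 0.0218 with upper-quartile and 0.0028 with nuclear-gene scaling. Junction reads alone put 3 genes below 1 at 12 h over dormant, against 5, and the genes differed. Cdc25a and Cdc25b were below 1 in both, and Aurka, at 0.610 (0.370 to 0.9997), in junction reads only. The junction intervals of Cenpf, at 0.558 (0.301 to 1.02), Espl1, at 1.31 (0.868 to 2.01), and Ncapd2, at 0.997 (0.804 to 1.24), spanned 1. The cause of these shifts was not tested, other than that a larger pseudocount shrinks every difference. Upper-quartile scaling moved the median of all genes at 12 h over dormant from -0.07 to 0.03, and over 6 h from -0.13 to 0.04, while the distance of the 43 genes from it stayed at 0.58 and went from 0.55 to 0.57. Less its snoRNA reads, a step added after seeing the data, the Top2a intron ratio turned to 2.10 at 12 h over dormant, against 0.842, and to 1.07 at 6 h over dormant, against 0.560. With a promoter window of 150 bases before to 50 after the start, both motifs stood together in 63.2% of promoters, against 3.30% of all.

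Depth limits the low genes: 21 to 90 exon reads in the dormant library lie behind Cdc25c, Nuf2, Ccnb1, Pttg1, Plk1, Spc25, Ube2c, Kif2c, Aurkb, Mad2l1, Ndc80, Ccnb2 and Cdc25b, of which Nuf2 and Mad2l1 rose and Cdc25b fell. Counting intervals leave out the spread between pools of embryos, which is unknown here.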

Other observations

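In 8 of the 38 promoters (21.1%), those of Aurka, Ccnb1, Ccnb2, Cdca8, Cdk1, Nek2, Spc25 and Ube2c, a pair of CCAAT strings on the same strand began 31 to 34 bases apart. The share was 0.895% of all 32851 promoters and 1.72% of the 10424 promoters of genes at 1 RPKM or more. The spacing was searched for after the positions had been seen, so the share is a description of these sequences and not a test.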
